A study of Mus musculus with 48 samples.

Results

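The question here is how far the early response of mouse bone cells to mouse oncostatin M (mOSM) needs the oncostatin M receptor gene Osmr. It was read as a difference of differences. The change with mOSM after 1 h in Osmr knockout (KO) cultures, each array against the control array of its own culture, was set against the same change in wild-type (WT) cultures. The difference is computed from 12 of the 48 arrays of the series, while its error is estimated over all 48. The 12 fall into 4 groups of 3: KO cells with mOSM, KO control cells, WT cells with mOSM and WT control cells, all at 1 h. The cells were primary osteoblasts from the calvaria, the flat bones of the skull, of Osmr null and WT mice, both on a C57BL/6 background. They were frozen, thawed, differentiated for 17 days and then given mOSM at 10 ng/ml or left as controls. KO cells came from null mice, so every cell type of a KO culture lacks the gene, and the labels do not say how many animals a culture came from. P-values therefore speak for these cultures alone. Their error is the spread left within cultures after the level of each culture is removed, pooled over all 16 groups. The other arrays hold human OSM (hOSM), LIF (called mLIF in the sample titles, while the treatment protocol calls it human) and the 6 h time point. A gene counted as past the threshold when its Benjamini-Hochberg adjusted p from limma, over 10739 genes, was under 0.05. Levels are normalized log2 values, and changes are log2 differences ± SE (n = 3 cultures per genotype). The SE comes from that pooled error, so the KO and WT changes of a gene have the same SE whatever the spread of their own cultures.

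Oncostatin M is a cytokine of the interleukin 6 family that signals through the shared chain gp130, encoded by Il6st, paired with a second chain. In mouse cells mOSM can use OSMR or the LIF receptor chain LIFR as that partner, while human OSM and LIF use LIFR, so a cell without OSMR keeps one of these receptors. Both pairs activate JAK kinases, the transcription factor STAT3 and the ERK pathway, and among the first genes switched on are feedback inhibitors such as Socs3. In bone, oncostatin M is known for effects on bone formation, on the osteocyte product sclerostin and on the support of osteoclasts by osteoblasts.

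On the 12 arrays, median bead signals ran from 121.3 to 169.8, and 15227 to 15907 probes had a detection p under 0.01 against the negative control beads. Arrays of one culture deviated together, with correlations between its mOSM and control array of 0.681 to 0.886 in KO and 0.623 to 0.679 in WT, which is why each change was taken within a culture. Between different cultures they were −0.744 to 0.511 in KO and −0.395 to −0.263 in WT. All these correlations were taken after the mean of each group of 3 arrays was removed. That step by itself pushes values between different cultures downward, so the contrast is partly built in. KO replicates 1 and 2 also correlated with each other, at 0.511 and 0.437, which the same step favours where replicate 3 stands apart. The KO replicate 3 culture stood apart, with a mean of 60.7 on the first principal component (29.6% of the variance) against −17.7 to −0.1 for the other 5 cultures. The labels name the cells osteocytes as well as osteoblasts. Of 8 osteocyte genes on the array, 4 were detected on all 3 arrays of every group, while Sost and Fgf23 were detected in none of the 4 groups and Dmp1 in neither WT group. Of 11 osteoblast genes, 7 or 8 were detected on all arrays of each group, and Dlx5 and Msx2 on none.

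The targeted gene separated the genotypes. Osmr levels were 6.95, 6.28 and 8.27 in KO cells with mOSM, 6.40, 6.59 and 7.45 in KO controls, 10.51, 9.72 and 11.13 in WT cells with mOSM, and 9.98, 9.51 and 10.20 in WT controls. Every KO array lay below every WT array, and the KO minus WT difference of the controls was −3.08 ± 0.36 (limma adjusted p = 5e-06, culture fitted as a random block). Whether the probe lies in the deleted part is not given in the files. The other receptor chains were near their control levels at 1 h: Lifr, the chain that remains in KO cells, changed by 0.08 in KO and 0.13 in WT cultures, and Il6st by −0.17 in KO and −0.14 in WT cultures. KO and WT controls differed past the threshold for 9 genes (0.0838% of those tested), and none of the 40 genes described next was among them. That number was 16 without KO replicate 2, 3 without WT replicate 1 or 2, and 68 without WT replicate 3. Of the 40, Cxcl9 came near the threshold in the controls (−2.06 ± 0.45, limma adjusted p = 0.0565). A missed threshold does not show equal control levels.

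After 1 h of mOSM, 1 gene, Socs3, changed past the threshold in KO cultures (0.00931% of those tested), with 272 genes at an unadjusted p under 0.05 in limma. In WT cultures 176 genes changed (1.64%), 151 upward (1.41%) and 25 downward (0.233%). The difference itself passed for 40 genes (0.372%), lower in KO for 38 (0.354%) and higher for 2 (0.0186%), with 516 at an unadjusted p under 0.05. None of the 40 had passed in KO and all 40 had passed in WT. Their median change was 0.25 in KO and 2.12 in WT cultures. The 95% interval of the KO change spanned 0 for 29 of them, against 10467 of all 10739 genes tested. An interval that spanned 0 was thus less common among the 40 than among all genes. The KO change was positive for 30 (75%), against 51.2% of all genes. In KO, 11 had an unadjusted p under 0.05, all 11 positive, against 272 of all genes, 160 of them positive. The changes of the 3 KO and the 3 WT cultures did not overlap for any of the 40, against 1131 such genes (10.5%) among all tested. The 40 were chosen by the difference of these same changes. That choice largely fixes the separation and favours a pass in WT alone, so neither is separate support. The exact two-sided permutation test of 3 against 3 cannot give a p below 0.1.

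**Figure D1:**
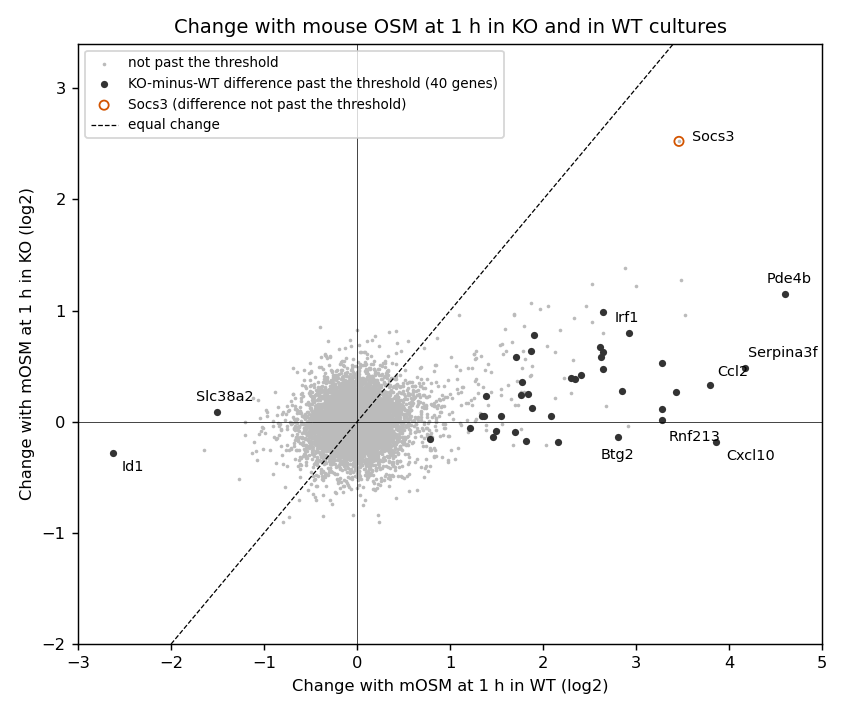
Change with mOSM at 1 h (log2, mOSM minus control) in KO cultures (vertical axis) against that in WT cultures (horizontal axis) for the 10739 genes tested, each point 1 gene. The 40 genes past the threshold for the difference (black) lie between −0.28 and 1.15 on the KO axis and between −2.63 and 4.60 on the WT axis, while Socs3 (ring) lies at 2.52 in KO and 3.46 in WT.

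The number of genes depended on which cultures were used. Leaving out KO replicate 1, 2 or 3 gave 19, 15 or 62 genes, and leaving out WT replicate 1, 2 or 3 gave 13, 38 or 15. Of the 40 genes, 33 lost the threshold without at least 1 culture, and Cxcl9, Hgf, Id1, Phlda1, Rnf213, Socs1 and Trib1 kept it without any one of the 6. Fitted on the 12 compared arrays alone, the number was 19, and 16 of the 40 genes kept the call. Socs1 and Id1 then had an adjusted p of 0.0514. The labels put replicates 1 and 2 on the earlier of 2 thawing dates, while the design text speaks of 3 occasions, so that the grouping into days is uncertain. The cultures of the earlier date alone gave 42 genes, 27 of the 40 and 15 others. Without the culture term the number was 8. The 176 genes of the WT response were 103 without WT replicate 1, 86 without WT replicate 3 and 80 without the culture term.

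**Figure D2:**
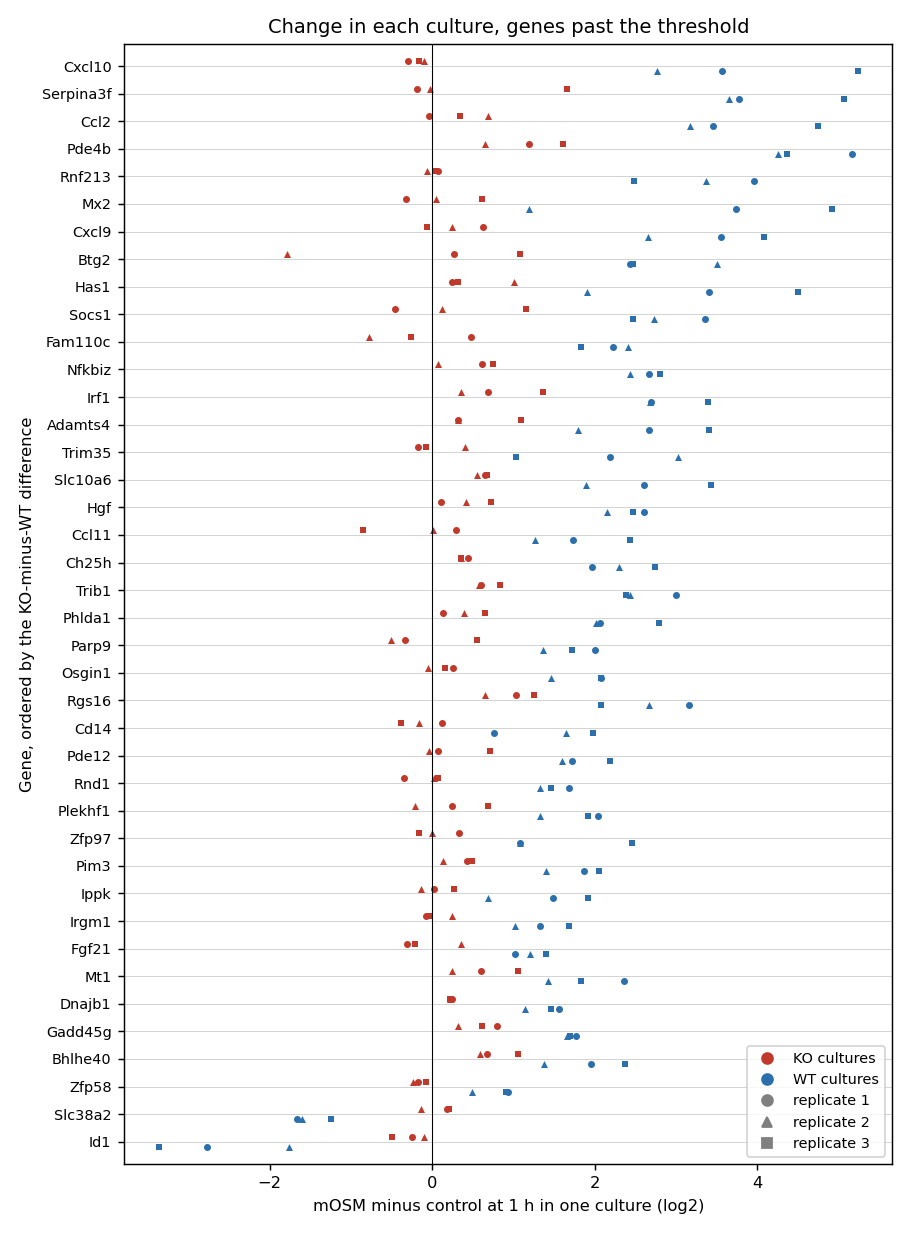
Change with mOSM at 1 h (log2) in each culture for the 40 genes past the threshold, ordered by the KO minus WT difference, with KO cultures in red above WT cultures in blue and the replicate shown by the symbol. The 3 KO points of a gene do not reach its 3 WT points for any of the 40, which their choice by the difference of these changes largely fixes.

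Feedback inhibitors of the pathway divided between genes that passed and genes that did not. Of 15 measured STAT3 targets and feedback genes, 2 were lower in KO past the threshold (Socs1 and Pim3), while 1 rose in KO, and 7 rose and 1 fell in WT. The list's median difference was −0.42, against 0.01 over all genes. Over all genes tested, 0.354% were lower in KO for the difference, and 1.41% rose and 0.233% fell in WT. These shares are the background for this and every later list. All lists were chosen with earlier results of these data known. Socs1, a suppressor of cytokine signalling that binds JAK kinases, read 4.68, 5.89 and 6.23 in KO cells with mOSM, 5.14, 5.76 and 5.08 in KO controls, 8.04, 8.18 and 8.64 in WT cells with mOSM, and 4.68, 5.45 and 6.17 in WT controls. The WT cells with mOSM stood above the other 9 arrays, which overlapped. The change was 0.27 ± 0.28 in KO and 2.85 ± 0.28 in WT, and the difference −2.58 ± 0.39 (limma adjusted p = 0.000335). Pim3, a serine/threonine kinase that supports survival, changed by 0.35 in KO and 1.77 in WT (difference −1.42 ± 0.33, adjusted p = 0.0439).

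Socs3, the feedback inhibitor that binds gp130 itself, still rose in KO cultures. It read 12.49, 12.49 and 13.23 in KO cells with mOSM, 9.85, 10.27 and 10.52 in KO controls, 14.44, 14.36 and 14.33 in WT cells with mOSM, and 10.46, 11.60 and 10.68 in WT controls. All 3 KO cultures rose, by 2.52 ± 0.31 (adjusted p = 2.63e-05), and all 3 WT cultures by 3.46 ± 0.31 (adjusted p = 1.43e-09). The difference of −0.94 ± 0.44 did not pass (adjusted p = 0.963, 95% interval −1.83 to −0.05). Cish, a related feedback inhibitor, changed by 1.38 ± 0.34 in KO and 2.88 ± 0.34 in WT, and its difference of −1.50 ± 0.47 did not pass either (adjusted p = 0.364), except without KO replicate 3 (adjusted p = 0.00422) and on the earlier thawing date. Stat3 itself changed by −0.07 in KO and −0.05 in WT cultures at this time.

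**Figure D3:**
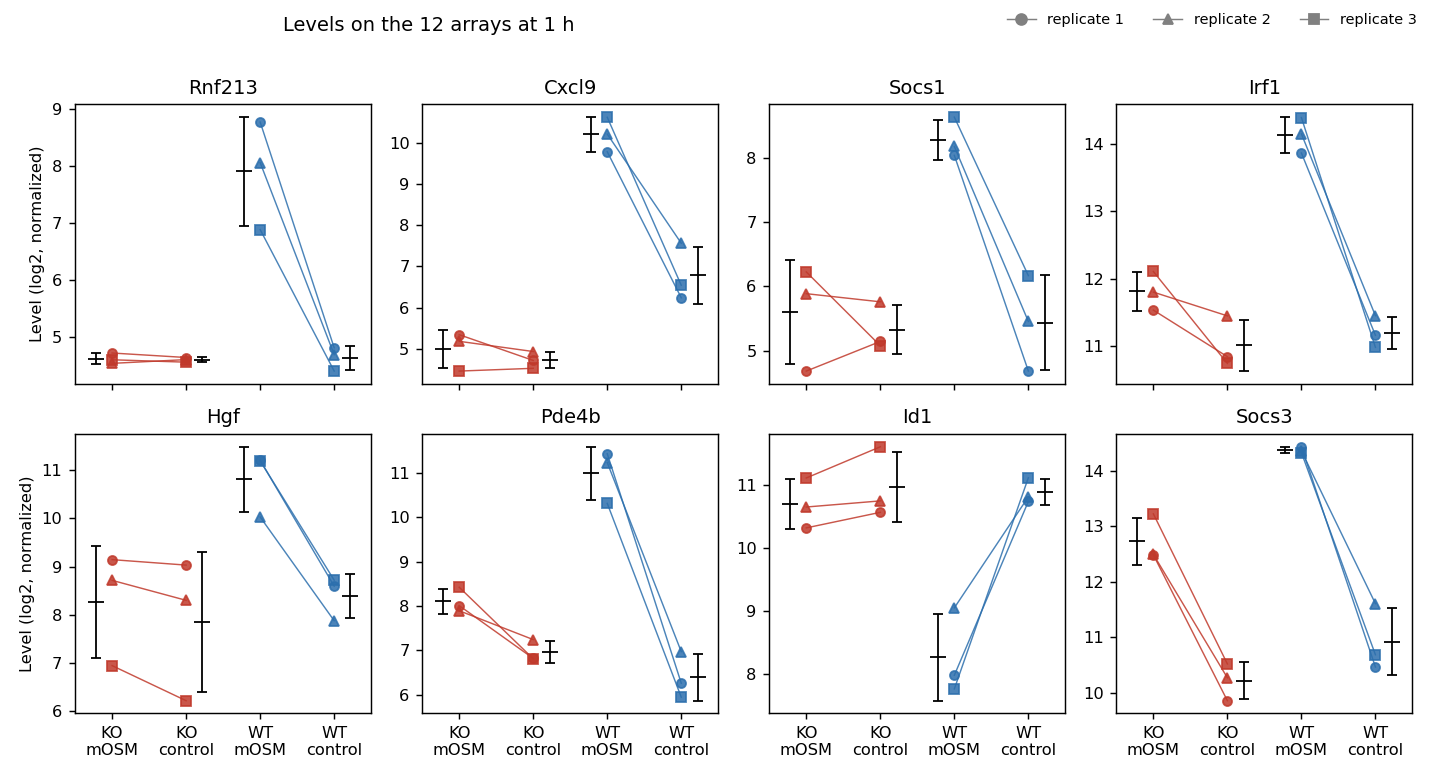
Normalized log2 levels of 8 genes on the 12 arrays at 1 h, with KO cells with mOSM, KO controls, WT cells with mOSM and WT controls from left to right. Lines join the mOSM and control arrays of a culture, and black marks give the mean ± SD (n = 3). For 6 genes the WT lines rise toward mOSM while the KO lines are less steep or fall, for Id1 the WT lines fall, and for Socs3 both genotypes rise.

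Promoters of 4 genes are shown, of Socs3, which rose in both genotypes, and of 3 genes past the threshold that hold a STAT motif. STAT dimers bind palindromes of the form TTCNNNGAA. These letters, which read the same pattern on both strands, were searched in the RefSeq windows of 300 bases (GRCm38.p6) from 250 bases before each gene's start to 50 after it. Windows were at hand for 27 of the 40 genes, and 5 of these held a match (18.5%: Irf1, Serpina3f, Pde4b, Ippk and Zfp58). Among genes that rose in WT the share was 28 of 119 (23.5%), among tested genes with a window 8.38%, and among all genes with a window 9.55%. The cAMP response element TGACGTCA was held by 3 of the 27 (11.1%: Btg2, Ch25h and Has1), against 3.54% of tested genes. A match is a description of the letters and no evidence of binding. Below are the 250 bases before the start, 5′ to 3′ on the gene's strand, with the match in capitals. It begins 90 bases before the start in Irf1, 150 in Pde4b, 121 in Serpina3f and 154 in Socs3.
Irf1, chr11:53769764-53770013, plus strand: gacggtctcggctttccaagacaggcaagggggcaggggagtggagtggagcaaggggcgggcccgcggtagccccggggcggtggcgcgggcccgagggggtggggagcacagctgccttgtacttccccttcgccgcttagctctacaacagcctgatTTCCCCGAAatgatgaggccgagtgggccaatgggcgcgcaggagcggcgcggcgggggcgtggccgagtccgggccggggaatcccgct
Pde4b, chr4:102569810-102570059, plus strand: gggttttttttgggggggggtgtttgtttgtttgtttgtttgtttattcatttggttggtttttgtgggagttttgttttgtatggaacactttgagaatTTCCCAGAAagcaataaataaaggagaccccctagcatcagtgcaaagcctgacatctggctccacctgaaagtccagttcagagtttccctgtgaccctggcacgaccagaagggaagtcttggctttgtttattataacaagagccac
Serpina3f, chr12:104214294-104214543, plus strand: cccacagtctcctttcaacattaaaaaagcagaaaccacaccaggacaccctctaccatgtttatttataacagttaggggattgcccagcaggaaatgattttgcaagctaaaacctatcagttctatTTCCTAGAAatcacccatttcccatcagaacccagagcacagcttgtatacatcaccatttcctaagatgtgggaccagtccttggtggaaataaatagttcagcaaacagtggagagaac
Socs3, chr11:117969367-117969616, minus strand: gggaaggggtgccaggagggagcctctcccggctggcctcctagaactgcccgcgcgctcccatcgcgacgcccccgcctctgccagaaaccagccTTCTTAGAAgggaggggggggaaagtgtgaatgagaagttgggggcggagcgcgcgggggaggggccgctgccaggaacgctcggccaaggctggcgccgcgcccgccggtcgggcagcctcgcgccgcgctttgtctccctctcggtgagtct
The letters between TTC and GAA differ between the 4 genes, TTCCCCGAA in Irf1, TTCCCAGAA in Pde4b, TTCCTAGAA in Serpina3f and TTCTTAGAA in Socs3. Pde4b has several starts, and only the window printed held a match.

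Interferon response genes were by number the list with the most members that rose in WT, while the smaller chemokine list had 7 of 13. Of 17 measured interferon members, 0 rose in KO, 9 rose in WT, and 3 were lower in KO past the threshold (Rnf213, Irf1 and Irgm1). The shares over all genes were 1.41% for a rise in WT and 0.354% for a lower difference. The list's median difference was −1.14. Irf1, a transcription factor that drives interferon-stimulated genes, read 11.54, 11.80 and 12.11 in KO cells with mOSM, 10.85, 11.45 and 10.75 in KO controls, 13.86, 14.14 and 14.38 in WT cells with mOSM, and 11.16, 11.45 and 10.99 in WT controls. The KO arrays with mOSM lay above all KO controls and below all WT arrays with mOSM. The change was 0.80 ± 0.24 in KO, short of the threshold, and 2.93 ± 0.24 in WT, and the difference −2.13 ± 0.34 passed (adjusted p = 0.000686). Its 4 other probes gave differences of −3.06 to −3.35.

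Rnf213, a very large ubiquitin ligase, was above background in WT cells with mOSM alone. It read 4.72, 4.54 and 4.60 in KO cells with mOSM and 4.64, 4.60 and 4.56 in KO controls, against 8.77, 8.06 and 6.89 in WT cells with mOSM and 4.81, 4.69 and 4.40 in WT controls. The rise in WT was at least 4.76-fold, taken from the lowest signal above background, and the difference had the smallest adjusted p of the 40 genes (−3.26 ± 0.34, adjusted p = 8.34e-07). With readings raised to that floor it was −2.21 and still passed (adjusted p = 0.00123). Irgm1, an immunity-related GTPase, lay at 12.01 to 12.23 in KO cells with mOSM, 11.98 to 12.26 in KO controls, 13.03 to 13.96 in WT cells with mOSM and 12.01 to 12.28 in WT controls. The WT arrays with mOSM stood clear of all others (difference −1.29 ± 0.28, adjusted p = 0.0221), and 2 other probes gave −3.21 and −2.22. Mx2, an interferon-induced GTPase of the dynamin family, changed by 0.11 in KO and rose by 3.28 ± 0.49 in WT, with the WT cultures spread from 7.12 to 11.17 with mOSM. Parp9, an interferon-induced member of the ADP-ribosyltransferase family, was above background on no KO array and rose in WT by at least 1.76-fold.

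The chemokine list held 3 genes that passed. Of 13 measured chemokines and inflammatory mediators, 0 rose in KO, 7 rose in WT, and 3 were lower in KO past the threshold (Cxcl10, Ccl2 and Cxcl9). The list's median change was 0.08 in KO and 1.32 in WT. Cxcl10, which attracts T cells through CXCR3, read 4.38, 4.51 and 4.57 in KO cells with mOSM and 4.67, 4.61 and 4.73 in KO controls, against 8.86, 7.66 and 10.49 in WT cells with mOSM and 5.30, 4.89 and 5.25 in WT controls. It was above background on the 3 WT arrays with mOSM and on none of the other 9, so that its rise in WT was at least 10.2-fold (difference −4.04 ± 0.81, adjusted p = 0.0109). With readings raised to the floor the difference was −3.30, and its other probe gave −1.56. Cxcl9, a ligand of the same receptor, read 5.34, 5.18 and 4.45 in KO cells with mOSM and 4.71, 4.93 and 4.52 in KO controls, against 9.79, 10.22 and 10.63 in WT cells with mOSM and 6.24, 7.56 and 6.54 in WT controls. No KO array was above background and every WT array was, control arrays included (KO minus WT controls −2.06, limma adjusted p = 0.0565, just short of the threshold). The difference of the changes was −3.17 ± 0.43 (adjusted p = 5.96e-05).

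Ccl2, the monocyte attractant MCP-1, read 6.38, 6.55 and 6.64 in KO cells with mOSM, 6.42, 5.86 and 6.29 in KO controls, 9.43, 9.03 and 11.27 in WT cells with mOSM, and 5.97, 5.86 and 6.51 in WT controls. The controls of the genotypes overlapped, and the change was 0.33 ± 0.51 in KO and 3.80 ± 0.51 in WT (13.9-fold), with a difference of −3.46 ± 0.72 (adjusted p = 0.0123). Ccl11, the eosinophil attractant eotaxin, which was not on the list of chemokines counted above, had a smaller difference of −1.99 ± 0.41 (adjusted p = 0.0109), and readings raised to the floor ended its call. Ccl7, a second monocyte attractant, changed by 0.96 ± 0.46 in KO and rose by 3.53 ± 0.46 in WT. Its difference of −2.57 ± 0.65 did not pass (adjusted p = 0.0874), but passed under 4 of 12 other settings and without KO replicate 3 (adjusted p = 1.63e-06).

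Other secreted regulators included factors that act on bone cells. Hgf, the ligand of the MET receptor, read 9.14, 8.71 and 6.95 in KO cells with mOSM, 9.03, 8.30 and 6.22 in KO controls, 11.20, 10.03 and 11.19 in WT cells with mOSM, and 8.59, 7.88 and 8.72 in WT controls. The KO replicate 3 culture was low in both states, and its change was the highest of the KO cultures but below every WT change. The difference was −1.99 ± 0.26 (adjusted p = 5.45e-05). One other probe of Hgf gave −2.13 and another −0.04. Fgf21, an endocrine growth factor, was above background on no KO array and rose in WT by at least 1.44-fold, and its call ended at the floor. Of 11 measured osteoclast-regulating factors, 0 rose in KO and 4 in WT, and 1, Ccl2, passed for the difference. Il6 changed by 0.80 ± 0.36 in KO and rose by 2.64 ± 0.36 in WT (difference −1.84 ± 0.51, adjusted p = 0.169, and 0.0162 without WT replicate 2). Tnfsf11, which encodes the osteoclast differentiation factor RANKL, changed by 0.61 ± 0.29 in KO and rose by 1.56 ± 0.29 in WT (difference −0.96 ± 0.41, adjusted p = 0.839).

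Pde4b, an intracellular signalling gene, encodes a phosphodiesterase that breaks down cAMP, the second messenger of parathyroid hormone in osteoblasts. It read 8.01, 7.89 and 8.42 in KO cells with mOSM, 6.82, 7.24 and 6.81 in KO controls, 11.43, 11.23 and 10.31 in WT cells with mOSM, and 6.26, 6.97 and 5.94 in WT controls. The KO arrays with mOSM lay between the controls of both genotypes and the WT arrays with mOSM. The change was 1.15 ± 0.47 in KO, short of the threshold, and 4.60 ± 0.47 in WT (24.3-fold), and the difference −3.45 ± 0.67 passed (adjusted p = 0.00761). A second probe gave −1.63. It was 1 of 8 measured cAMP signalling genes to pass. Rgs16, which shortens G protein signalling, changed by 0.98 ± 0.24 in KO and 2.64 ± 0.24 in WT (difference −1.66 ± 0.34, adjusted p = 0.0109).

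Single members of the NF-kappaB and the mRNA decay and BTG lists and 2 of the stress list passed. Nfkbiz, the nuclear IkappaB protein that directs a part of NF-kappaB transcription, read 9.28, 9.43 and 8.30 in KO cells with mOSM, 8.67, 9.36 and 7.55 in KO controls, 11.54, 11.79 and 11.04 in WT cells with mOSM, and 8.87, 9.35 and 8.23 in WT controls. It was 1 of 9 measured NF-kappaB genes to pass (difference −2.16 ± 0.37, adjusted p = 0.00164). Trib1, a pseudokinase that targets C/EBP factors for degradation, read 7.49, 7.23 and 6.94 in KO cells with mOSM, 6.89, 6.65 and 6.10 in KO controls, 10.09, 9.90 and 9.51 in WT cells with mOSM, and 7.09, 7.46 and 7.12 in WT controls. Its KO cultures each moved upward, by 0.67 ± 0.22, and the difference was −1.93 ± 0.31 (adjusted p = 0.000677). Trib1 and Gadd45g, a stress-inducible growth arrest gene (−1.13 ± 0.21, adjusted p = 0.00581), were 2 of 9 measured stress genes to pass. Btg2, an antiproliferative gene that promotes mRNA deadenylation, had a difference of −2.95 ± 0.69 (adjusted p = 0.0409), with KO controls that ranged from 4.95 to 7.04. It was 1 of 9 mRNA decay and BTG genes to pass.

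Single genes of the matrix, hyaluronan and heat shock lists were lower in KO. Adamts4, a protease that cleaves aggrecan, read 8.67, 8.30 and 8.45 in KO cells with mOSM, 8.35, 7.99 and 7.35 in KO controls, 10.73, 9.68 and 11.45 in WT cells with mOSM, and 8.07, 7.89 and 8.04 in WT controls. It was 1 of 16 measured matrix proteases and inhibitors to pass (−2.05 ± 0.36, adjusted p = 0.00266). Has1, a hyaluronan synthase, rose in WT by at least 6.43-fold (difference −2.75 ± 0.56, adjusted p = 0.0109), was 1 of 5 hyaluronan genes to pass, and lost the call at the floor. Serpina3f, a serine protease inhibitor, rose in WT by at least 10.1-fold. It read 4.79, 4.68 and 7.17 in KO cells with mOSM, so that the KO replicate 3 culture stood above the other KO cultures, and the floor ended its call (−3.69 ± 0.75, adjusted p = 0.0109, and −2.78, adjusted p = 0.168, at the floor). Ch25h, which makes 25-hydroxycholesterol, changed by 0.38 in KO and 2.34 in WT (−1.96 ± 0.35, adjusted p = 0.00266). Mt1, a metal-binding metallothionein, changed by 0.64 in KO and 1.87 in WT, and Dnajb1, a co-chaperone of HSP70, by 0.23 in KO and 1.39 in WT. Dnajb1 was 1 of 12 heat shock and unfolded protein response genes to pass.

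The remaining genes lower in KO had differences of −2.34 to −0.94. They were the pleckstrin homology-like gene Phlda1 (−1.90), the bile acid transporter family member Slc10a6 (−2.02), the ubiquitin ligase Trim35 (−2.03), the oxidative stress gene Osgin1 (−1.75), the monocyte lipopolysaccharide co-receptor Cd14 (−1.60), the phosphodiesterase Pde12 (−1.59), Rnd1 (−1.57), the endosomal protein gene Plekhf1 (−1.53), the inositol phosphate kinase Ippk (−1.31), the basic helix-loop-helix repressor Bhlhe40 (−1.12), the zinc finger genes Zfp97 (−1.49) and Zfp58 (−0.94), and Fam110c (−2.34). Probes disagreed for Trim35, whose 3 others gave −1.73, 0.79 and −0.18, and for Zfp58, whose other gave −0.33. Readings raised to the floor ended the calls of Rnd1, Parp9 and Fam110c. Cd14 is on the list of macrophage and osteoclast markers. Of the 9 such markers on the array, Ptprc, Itgam, Acp5 and Calcr were detected on no array of any of the 4 groups, and 1 of 5 tested, Cd14, passed. The mean log2 level of the list ran from 6.04 to 6.46 in KO cells with mOSM, 5.99 to 6.55 in KO controls, 6.16 to 7.65 in WT cells with mOSM and 5.98 to 7.85 in WT controls, and its part in the result was not tested. In bulk cultures fewer cells of a type and less RNA per cell cannot be told apart.

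Both genes with a higher difference in KO did not change past the threshold in KO and fell in WT. Id1, an inhibitor of basic helix-loop-helix factors and a target of BMP signalling, read 10.32, 10.65 and 11.12 in KO cells with mOSM, 10.57, 10.75 and 11.61 in KO controls, 7.98, 9.05 and 7.76 in WT cells with mOSM, and 10.74, 10.82 and 11.12 in WT controls. All 3 WT arrays with mOSM lay below the other 9. The change was −0.28 ± 0.23 in KO and −2.63 ± 0.23 in WT, and the difference 2.35 ± 0.33 (adjusted p = 7.1e-05). It was 1 of 17 measured BMP, TGF-beta and ID genes to pass, and the related Id3 changed by 0.22 in KO and 0.40 in WT. Slc38a2, the amino acid transporter SNAT2, read 12.51, 12.06 and 11.69 in KO cells with mOSM, 12.33, 12.19 and 11.49 in KO controls, 10.18, 10.43 and 10.16 in WT cells with mOSM, and 11.84, 12.04 and 11.40 in WT controls. Its difference was 1.59 ± 0.36 (adjusted p = 0.0309), and 2 other probes gave 0.36 and 0.48.

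Immediate early transcription factors responded in WT without passing for the difference. Of 11 measured AP-1 and related factors, 0 rose in KO, 5 rose in WT and 0 passed, with a list median difference of −0.48. Junb read 11.19, 11.62 and 11.29 in KO cells with mOSM, 10.32, 10.92 and 9.74 in KO controls, 13.78, 13.75 and 13.33 in WT cells with mOSM, and 10.96, 11.67 and 10.85 in WT controls. Its KO cultures each moved upward, by 1.04 ± 0.40, and the difference was −1.42 ± 0.56 (adjusted p = 0.74, and 0.0249 without KO replicate 3). Fos had a difference of −1.01 ± 0.78 and changed by 1.04 in KO and 2.05 in WT. Of 10 EGR, NR4A and other immediate early genes 3 rose in WT, of 9 KLF factors 2 rose and 1 fell, and of 11 MAPK phosphatases and ERK feedback genes 2 rose, and in these 3 lists none moved in KO or passed for the difference. Egr1 was already bright in controls and changed by 0.10 in KO and 0.31 in WT. Myc changed by 0.36 in KO and 1.27 in WT, neither past the threshold.

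Genes of the bone lineage gave no difference at 1 h that passed. None of 9 osteoblast, 6 osteocyte or 13 Wnt pathway genes tested passed in KO, in WT or for the difference, and their median differences were −0.10, 0.06 and 0.05. The same held for 8 cell cycle genes and for 9 adipocyte, 2 endothelial, 5 chondrocyte and 2 muscle markers. The adipocyte list read 6.48 to 8.11 in mean log2 level in KO cells with mOSM, 6.23 to 8.21 in KO controls, 7.92 to 9.43 in WT cells with mOSM and 7.97 to 8.91 in WT controls, and its part in the result was not tested. Of 11 gp130 family receptors and ligands, 1 rose in WT, Il6, and 0 passed for the difference. Of 7 hypoxia and glycolysis genes, 1 rose in WT and 0 passed. In all, 18 of the 40 genes were on one of the 27 lists and 22 on none.

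Genes that rose in WT mostly had small positive changes in KO. Of the 151 genes that rose in WT, 127 (84.1%) had a positive change in KO, against 51.2% of all genes tested, and 38 had an unadjusted p under 0.05 in KO, all 38 positive. Their median KO change was 0.27. Of the 25 genes that fell in WT, 3 had a positive change in KO. The 113 risen genes whose difference did not pass had a median difference of −0.96. Their choice by a rise in WT pulls this value downward, since the WT change is subtracted in it. A missed threshold does not show equal responses, and this median does not show unequal ones. Genes of the WT response with a difference nearest 0 included Gpr146, an orphan G protein-coupled receptor, which changed by 0.96 ± 0.24 in KO and 1.10 ± 0.24 in WT. The transcription factor Cebpb belonged to the same group and changed by 0.51 ± 0.15 in KO and 0.85 ± 0.15 in WT. Bcl3, an IkappaB family cofactor, changed by 1.07 ± 0.34 in KO and 1.87 ± 0.34 in WT. Cebpd changed by −0.15 ± 0.16 in KO and fell by 0.86 ± 0.16 in WT, with a difference of 0.71 ± 0.23 that did not pass (adjusted p = 0.407).

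The 1 h differences were set against those at 6 h, which come from other arrays of the same cultures. At 6 h the difference passed for 2823 genes (26.3%), and 23 of the 40 genes were among them, all with the sign they had at 1 h. This was not particular to the 40. Of the 113 genes that rose in WT at 1 h without passing for the difference, 81 passed at 6 h, 76 with the sign they had at 1 h. Of the 23 that fell in WT without passing, 4 passed at 6 h, 3 with that sign. The change of the difference between the times was tested directly, and it passed for 1250 genes (11.6%) and for 13 of the 40. Without KO replicate 2 the number was 777, and without WT replicate 1 it was 610. Of the 13 genes, 10 had the larger difference at 1 h: Rnf213, Btg2, Zfp97, Osgin1, Rnd1, Hgf, Fgf21, Dnajb1, Zfp58 and Id1. The 40 genes were chosen by their 1 h difference, which favours larger values at 1 h. Among all genes past this test, by rounded adjusted p, the difference was larger at 1 h for 31 and at 6 h for 1218. Rnf213 had a difference of −3.26 at 1 h and −0.28 at 6 h (1 h minus 6 h −2.98 ± 0.49, adjusted p = 9.32e-05), and at 6 h it was above background in none of the 4 groups, with WT cells with mOSM at 4.96, 5.18 and 4.58. Id1 had 2.35 at 1 h and 0.45 at 6 h (adjusted p of the change 0.00536). Its levels at 6 h were 9.43, 9.29 and 9.45 in KO cells with mOSM, 9.68, 9.71 and 10.21 in KO controls, 8.28, 8.47 and 9.02 in WT cells with mOSM, and 9.42, 9.59 and 9.53 in WT controls.

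For Rgs16, Ch25h and Phlda1 the difference was larger at 6 h. Rgs16 had −1.66 at 1 h and −4.10 at 6 h (change 2.45 ± 0.48, adjusted p = 0.00066). At 6 h it read 8.07, 8.10 and 5.25 in KO cells with mOSM, 7.85, 7.76 and 5.25 in KO controls, 11.24, 10.71 and 11.31 in WT cells with mOSM, and 7.31, 5.95 and 7.12 in WT controls. Several genes that missed the threshold at 1 h also gained a difference by 6 h. Socs3 had −0.94 at 1 h and −3.21 at 6 h (change 2.27 ± 0.62, adjusted p = 0.013), with 10.36, 10.25 and 11.997 in KO cells with mOSM, 9.62, 9.03 and 8.67 in KO controls, 13.76, 13.66 and 13.95 in WT cells with mOSM, and 8.89, 8.64 and 8.90 in WT controls at 6 h. Tnfsf11 had −0.96 at 1 h and −3.27 at 6 h (change 2.31 ± 0.58, adjusted p = 0.00742). Il6st had −0.03 at 1 h and −2.26 at 6 h (change 2.23 ± 0.52, adjusted p = 0.00403), and its levels at 6 h were 9.65, 10.48 and 9.03 in KO cells with mOSM against 12.06, 12.13 and 12.03 in WT cells with mOSM.

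The largest changes of the difference between the times, by the rule for naming genes, were in AA467197 (3.90), Mcoln2 (3.65), Slc39a14 (3.47), Fam180a (−3.81), G0s2 (−3.67) and Btg2 (−3.53). Slc39a14, a zinc and iron importer, had 0.39 at 1 h and −3.08 at 6 h, and Mcoln2, a lysosomal cation channel, −1.33 at 1 h (not past the threshold, except without WT replicate 1) and −4.99 at 6 h. G0s2, an inhibitor of the lipase that breaks down stored fat, had 0.10 at 1 h and 3.78 at 6 h. Btg2 was the 1 gene of these 6 that passed at 1 h, with −2.95 at 1 h and 0.58 at 6 h.

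Ligands restricted to LIFR give the matching comparison at the same time point and share the control arrays with mOSM, so their differences are given side by side. The KO minus WT difference of the hOSM effect passed for 0 genes in limma (224 at an unadjusted p under 0.05), and that of the mLIF effect for 0 (319). Over the 40 genes the differences had a median of −1.92 for mOSM, −0.04 for hOSM and −0.10 for mLIF. The 95% interval spanned 0 in 37 of 40 for hOSM and 38 of 40 for mLIF. Over all 10739 genes tested it spanned 0 in 10515 for hOSM and 10420 for mLIF, so such intervals are not particular to the 40. The gap between ligands, in which the controls cancel, passed for 43 genes between mOSM and hOSM (0.4%) and for 41 between mOSM and mLIF (0.382%). Of the 40 genes, 29 passed in each of these tests and 26 in both. The 40 were chosen on mOSM arrays that these tests use again. That choice favours both the passes and the larger mOSM median, so neither is separate support. Leaving out KO replicate 1, WT replicate 1 or WT replicate 3 gave 23, 22 or 26 genes against hOSM and 14, 17 or 22 against mLIF.

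**Figure D4:**
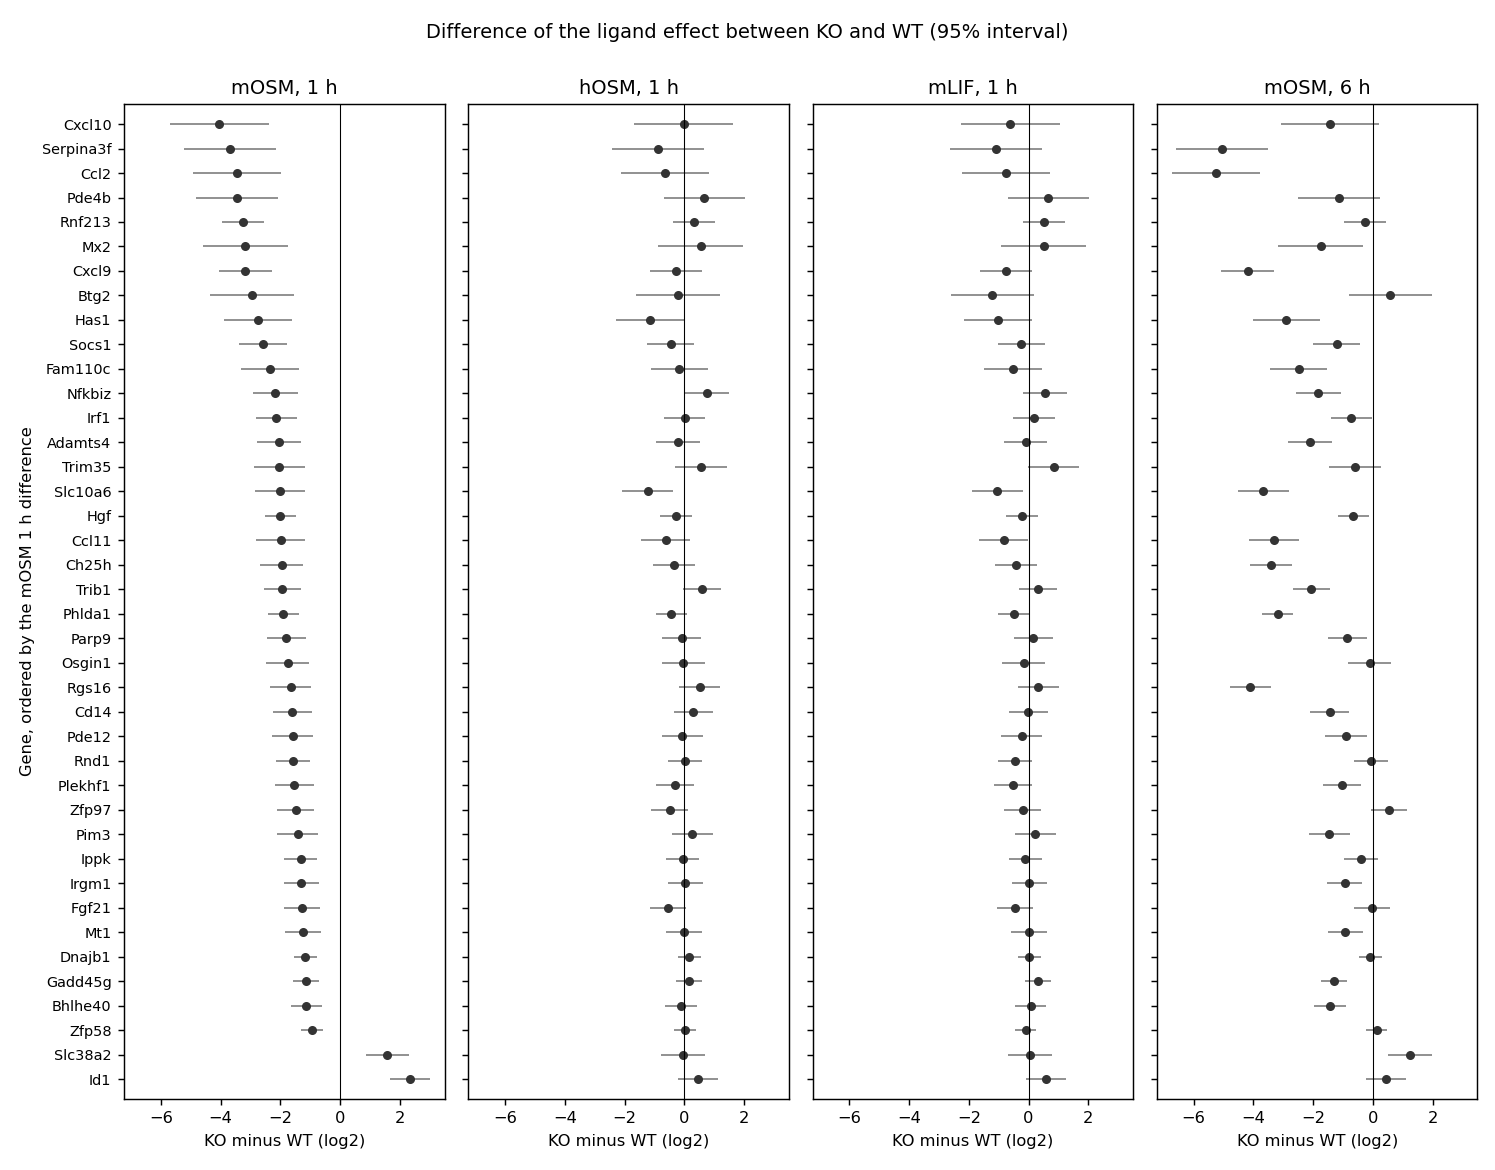
KO minus WT difference of the ligand effect (log2, points, with 95% intervals as lines) for the 40 genes past the threshold with mOSM at 1 h, in 4 panels for mOSM, hOSM and mLIF at 1 h and mOSM at 6 h. The mOSM 1 h panel was used to choose the genes. The hOSM and mLIF points lie between −1.23 and 0.84, and the 6 h points between −5.27 and 1.24.

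KO cells responded to the other ligands. Irf1 read 14.03, 13.55 and 14.41 with hOSM and 14.01, 13.58 and 14.42 with mLIF in KO cells, against 13.96, 14.53 and 14.02 with hOSM and 13.76, 14.10 and 14.17 with mLIF in WT cells. These ranges overlapped between the genotypes, and the gap of the mOSM difference to that of hOSM was −2.14 (adjusted p = 0.000466). Pde4b rose in KO by 3.97 with hOSM and 4.43 with mLIF, and in WT by 3.30 with hOSM and 3.76 with mLIF. Rnf213 rose in KO by 2.47 with hOSM and 3.04 with mLIF, and its gaps were −3.58 (adjusted p = 7.86e-08) to hOSM and −3.79 (adjusted p = 1.94e-08) to mLIF. Id1 fell in KO by 1.59 with hOSM and 1.64 with mLIF, against falls of 2.06 with hOSM and 2.22 with mLIF in WT. Slc38a2 fell in KO by 1.35 with hOSM and 1.36 with mLIF.

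Socs3 was lower with mOSM than with the other ligands in KO cells. There it read 12.49, 12.49 and 13.23 with mOSM, 14.55, 14.40 and 14.01 with hOSM and 14.38, 14.22 and 14.07 with mLIF, so that every KO array with mOSM lay below every KO array with another ligand. In WT cells it read 14.44, 14.36 and 14.33 with mOSM, 14.26, 14.30 and 13.75 with hOSM and 14.33, 14.13 and 14.09 with mLIF. The gap of the mOSM difference to that of hOSM was −1.86 ± 0.44 and passed (adjusted p = 0.0445), and to that of mLIF it was −1.68 ± 0.44 and did not (adjusted p = 0.112). For Ccl2 and Serpina3f neither gap passed, at −2.81 and −2.70 for Ccl2 and −2.80 and −2.60 for Serpina3f. Slc10a6 had gaps of −0.79 and −0.97, and its difference was −2.02 with mOSM, −1.23 with hOSM and −1.05 with mLIF.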

How the data were processed

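RNA from the cultures was hybridised to mouse bead arrays. The deposited table holds log2 values, normalized across arrays by the authors. Per the submitters' processing notes they used BeadStudio and limma, with no version given. A second deposited file holds bead intensity per probe on a linear scale and a detection p-value per probe, as the authors exported it. Background correction and quantile normalization of those intensities with limma's neqc gave the deposited log2 values to within 0.03376. The genome build used by the submitters is not given in the sources used here. Platform annotation names 1 gene for 34885 probes, several for 18 and none for 10378. A probe was kept if 3 or more of the 48 arrays gave it a detection p under 0.01, and the brightest probe stood for its gene, which left 10739 genes. Scaling between arrays pulls all arrays to 1 distribution, so a shift shared by most genes would not show, and readings near background compress low genes.

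One limma model (3.58.1, R 4.3.3) was fitted to all 48 arrays, with 16 group means and a term for each of 6 cultures (28 residual degrees of freedom). P-values were adjusted over all genes by Benjamini and Hochberg. Controls of the genotypes were compared with the culture as a random block (correlation 0.427), since the culture term lies within genotype. The numbers pair arrays within a genotype, where every same-culture correlation was over 0.1 after group means were removed, and not between genotypes (−0.076 to 0.28). KO replicates 1 and 2 also passed that mark with each other (0.511 and 0.437). On simulated data with 10739 genes the model found 59% of differences of 1 and 94% of differences of 2 (log2), with 8 false calls of 161. The simulated differences were planted in genes drawn at random, with normal noise. In the data the median SE of the difference was 0.26 over all genes and 0.37 over genes that rose in WT. The simulated rates therefore need not hold for responding genes. The number of arrays, 3 a group, limits the precision. A probe below background on all arrays of a group has only a bound there, and "at least" folds use the lowest signal above background on each array. Members and gene lists were chosen with earlier results of these data known. The rule for named genes took 25 pathway genes, the 15 lowest and 10 highest differences past the threshold, up to 3 past it per list, the 6 largest KO effects, the 6 largest changes between times and the 6 WT-responsive genes nearest 0. The remaining genes among the 40 are named because all are given. Motif shares are descriptions. Python 3.11.15 with pandas 2.3.3 and matplotlib 3.10.9 made the promoter table and figures.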

Additional observations from a re-analysis of the deposited data

Results flagged for a closer look

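The KO and WT cultures differed in their response to the same ligand at 1 h in 40 genes, by the test of the difference itself, and each is listed with its KO minus WT difference (log2, 3 cultures per genotype). Values from −4.04 to −2.34 belonged to Cxcl10 (−4.04), Serpina3f (−3.69), Ccl2 (−3.46), Pde4b (−3.45), Rnf213 (−3.26), Mx2 (−3.17), Cxcl9 (−3.17), Btg2 (−2.95), Has1 (−2.75), Socs1 (−2.58) and Fam110c (−2.34). With readings raised to the floor of the signal above background, Cxcl10 was at −3.30, Serpina3f at −2.78, Rnf213 at −2.21 and Cxcl9 at −3.39, so that their order against Ccl2 and Pde4b is not settled. Values from −2.16 to −1.60 belonged to Nfkbiz (−2.16), Irf1 (−2.13), Adamts4 (−2.05), Trim35 (−2.03), Slc10a6 (−2.02), Hgf (−1.99), Ccl11 (−1.99), Ch25h (−1.96), Trib1 (−1.93), Phlda1 (−1.90), Parp9 (−1.79), Osgin1 (−1.75), Rgs16 (−1.66) and Cd14 (−1.60). The other negative values were Pde12 (−1.59), Rnd1 (−1.57), Plekhf1 (−1.53), Zfp97 (−1.49), Pim3 (−1.42), Ippk (−1.31), Irgm1 (−1.29), Fgf21 (−1.27), Mt1 (−1.24), Dnajb1 (−1.16), Gadd45g (−1.13), Bhlhe40 (−1.12) and Zfp58 (−0.94). The positive values were Slc38a2 (1.59) and Id1 (2.35).

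The difference itself changed between the times in 1250 genes, by the test of 1 h minus 6 h, and in 24 of the named genes. A negative value means a lower KO minus WT difference at 1 h than at 6 h. Negative values were found for Fam180a (−3.81), G0s2 (−3.67), Btg2 (−3.53), Rnf213 (−2.98), Fzd5 (−2.85), Zfp97 (−2.03), Osgin1 (−1.65), Rnd1 (−1.52), Hgf (−1.34), Fgf21 (−1.24), Dnajb1 (−1.07), Zfp58 (−1.07) and Mzt2 (−0.81). Positive values were found for Cebpd (1.19), Phlda1 (1.28), Ch25h (1.46), Id1 (1.90), Il6st (2.23), Socs3 (2.27), Tnfsf11 (2.31), Rgs16 (2.45), Slc39a14 (3.47), Mcoln2 (3.65) and AA467197 (3.90). No group held enough arrays for a check of single arrays that stand apart, since each had 3.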

How the results depend on the processing

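All 40 differences kept their sign under the 12 settings and with each of 6 cultures left out, which their choice on these arrays largely fixes. Irf1 and Rnf213 passed under all 12 settings. Over 67 named genes and 1206 gene and setting pairs, 967 kept their side of the threshold, 227 lost it, 12 gained it (Ccl7, Cish, Il6, Junb and Mcoln2) and 0 reversed. The number of genes past the threshold for the mOSM 1 h difference was 8 with no replicate block and 19 on the 12 compared arrays alone, and 13 to 62 with 1 culture left out. It was 34 to 50 under the other 11 settings. With no replicate block the other numbers were 8 for mOSM minus hOSM, 7 for mOSM minus mLIF, 80 for WT mOSM at 1 h, 2 for the controls, 1043 for the 6 h difference and 198 for 1 h minus 6 h. Median scaling, under which the median 1 h difference of all genes was −0.112 (0.010 in the main fit), gave 41 for the 1 h difference, 40 of them lower in KO, 2 for the controls, 1754 at 6 h and 639 for 1 h minus 6 h. Every detected probe gave 64 for mOSM minus mLIF, the beadchip as a block 99 for WT mOSM, the 12 arrays alone 2 for KO mOSM, no filter 3 and the first thawing day 32 for the controls. With 1 culture left out the ranges were 22 to 59 for mOSM minus hOSM, 14 to 45 for mOSM minus mLIF, 86 to 234 for WT mOSM, 3 to 68 for the controls, 2027 to 2623 at 6 h and 610 to 1080 for 1 h minus 6 h. The causes of these moves were not tested, beyond the fewer arrays of some settings. The 6 h, hOSM and mLIF differences were put through the alternatives after the data were seen. No beadchip held more than 2 of the 4 compared groups, so no within-chip difference of differences could be had. Genes near background, 7 of the 40 by their WT controls, are limited by signal over background.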
